A study of Penicillium oxalicum with 12 samples.

Results

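The genes described here are those whose transcripts were low in 2 engineered strains of the fungus Penicillium oxalicum, gCXC and gXlnRC, and moved less in another, gAraRC. The limit was 2-fold on the log2(FPKM + 1) scale. They were chosen by their measured values. For each gene, log2(FPKM + 1) was averaged over the 3 libraries of a strain, and the average over the 3 wild type libraries was subtracted. FPKM is the number of fragments scaled to gene length and library size. Members had a difference of -1 or lower in gCXC and in gXlnRC, and a difference between -1 and 1 in gAraRC. Of the 9125 genes that reached 1 FPKM in 3 or more libraries, 71 met the rule, which is 0.778%. The rule also sets 13 tags aside, and 0 of them met its other conditions.

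Messenger RNA was sequenced from mycelia that had grown for 24 h in Vogel's medium with 2% glucose and then for 4 h in the same medium without a carbon source, at 30 °C and 200 rpm. In all, 4 strains with 3 libraries each were compared. The strain gCXC expresses a chimeric transcription factor named CXC, gXlnRC expresses XlnR with the substitution A871V, gAraRC expresses AraR with the substitution A731V, and WT is strain 114-2, the control. The series asked what engineering of transcriptional activators does to the transcriptome. The parts of the chimera, the promoters, the number of clones per strain and whether the native regulator genes were kept are not stated in the labels.

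In filamentous fungi, genes for enzymes that break down plant cell walls are switched on by transcription factors that bind DNA through zinc clusters. From work in Aspergillus, XlnR is known to activate genes for xylan breakdown and xylose use, and AraR to control the use of arabinose. When sugar runs out, mycelia release carbon catabolite repression and change the expression of many genes. The deposited table names genes by PDE tags alone, so the members are described by tag, level, length and tag number, without roles.

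The 12 libraries held 14549534 to 20092360 reads counted in genes, as recovered from the steps of the FPKM values. Libraries of 1 strain differed by 5.25 to 64.8 times the variance that read sampling alone would give. The replicate furthest from its partners was gAraRC replicate 1, at 53.5 and 64.8 times, whereas gAraRC replicates 2 and 3 differed by 5.25 times. It was the lowest of the 3 gAraRC libraries for 50 of the 71 members (70.4%) and for 37.3% of all tested genes. The design text calls the libraries of a strain biological triplicates. The transcripts of the engineered regulators could not be looked up by tag, so the strain labels were not checked against them. In bulk mycelium, fewer cells with a transcript and less of it per cell cannot be told apart.

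The median differences of the members were close in gCXC and gXlnRC, which the rule bounds at the same limit. Over the members, the gCXC and gXlnRC differences had a Pearson r of 0.30. The rule cuts both differences at -1, which narrows their range, so nothing is read from the size of r. The difference from WT ran from -3.12 to -1.01 in gCXC with a median of -1.44, and from -4.01 to -1.0002 in gXlnRC with a median of -1.31, on the log2 scale. In gAraRC it ran from -0.98 to 0.95 with a median of -0.59. The median over all tested genes was -0.0026 in gCXC, -0.10 in gXlnRC and -0.34 in gAraRC. As ratios of mean FPKM to WT, the medians over the members were 0.338, 0.359 and 0.659. These values chose the members, so they describe the genes and test nothing, and all 3 differences share the same WT libraries.

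**Figure D1:**
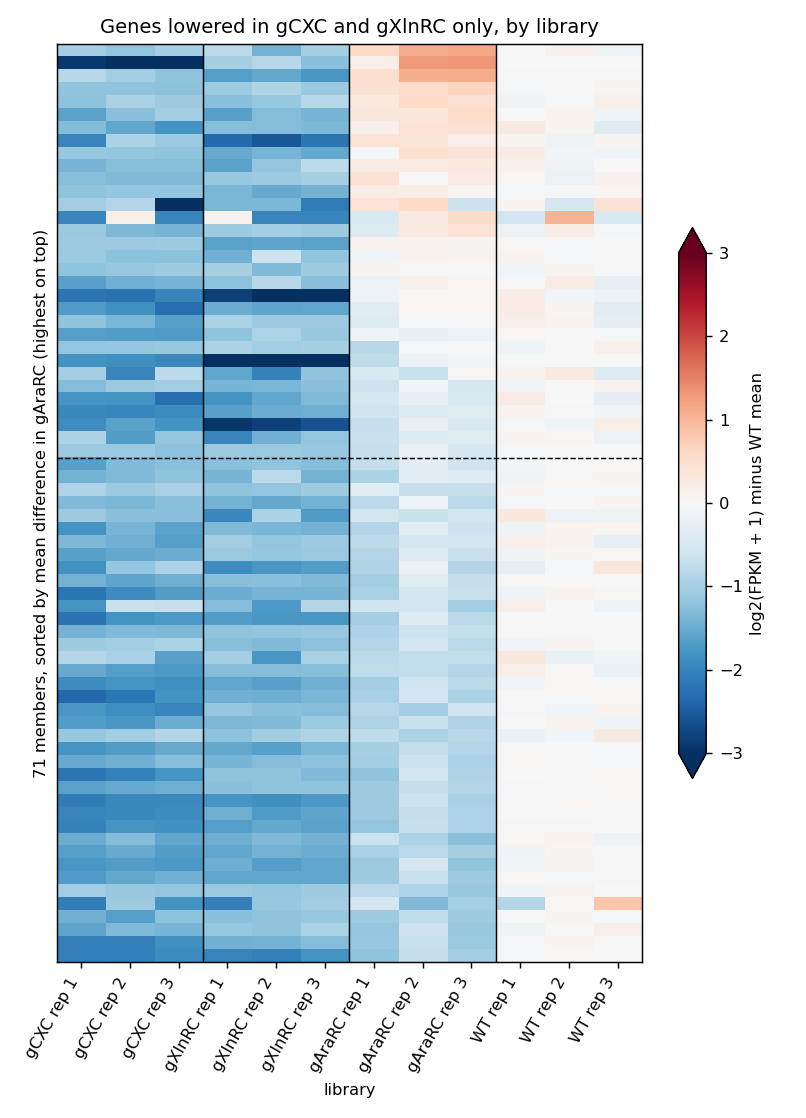
Each row is 1 of the 71 members and each column 1 library; colour is log2(FPKM + 1) minus the WT mean of that gene. Rows are sorted by the mean difference in gAraRC, and the dashed line marks -0.5. The 6 gCXC and gXlnRC columns are low in nearly every row (PDE_04437, with 0 to 5 reads, has 2 cells above the WT mean), and the 3 gAraRC columns shade from above WT at the top to below WT at the bottom.

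Most members were near the limit of the rule. In gCXC 40 of the 71 had a difference above -1.5, and in gXlnRC 48 did. A difference of -2 or lower was reached by 4 members in gCXC and by 4 in gXlnRC, and PDE_00957 was the 1 member that reached it in both. By limma with Benjamini-Hochberg adjustment over all 9125 genes and an adjusted p below 0.05, 70 members were called lower in gCXC than in WT, where 26.5% of all tested genes were called lower. Likewise, 70 were called lower in gXlnRC, where the share of all tested genes was 35.5%. Since the rule used these contrasts, nothing is read from the counts. The member not called in either was PDE_04437, a gene of 36 nt with 0 to 5 reads in a library.

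**Figure D2:**
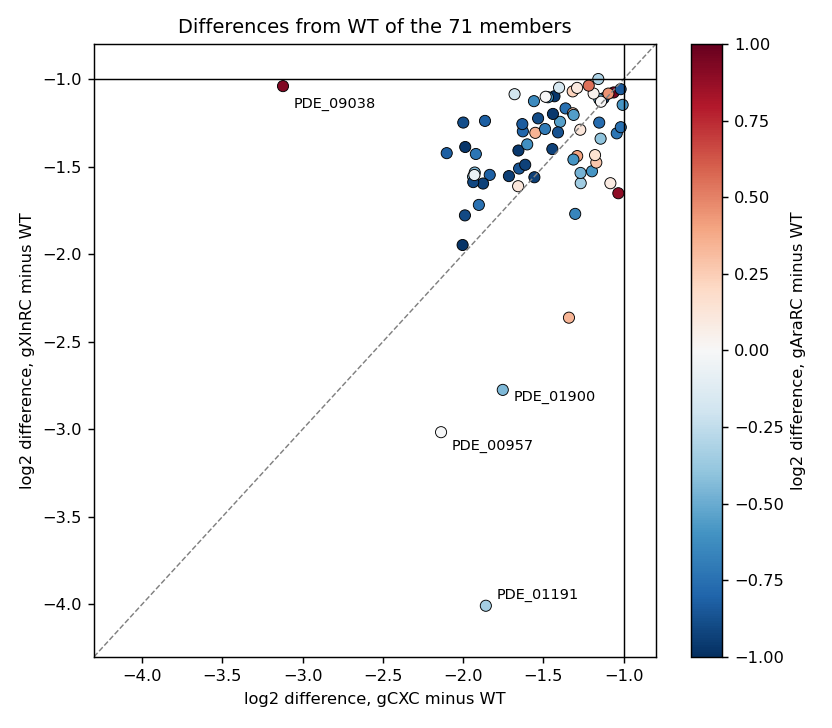
The 71 members by their log2 difference from WT in gCXC (horizontal axis) and in gXlnRC (vertical axis), coloured by the difference in gAraRC. Most points lie between -2 and -1 on both axes; PDE_01191 is the lowest on the vertical axis (-4.01) and PDE_09038 the lowest on the horizontal one (-3.12).

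The word "only" in the working name of these genes holds for the limit of 1 on the log2(FPKM + 1) scale and not for the test. As ratios of FPKM without the added 1, gAraRC was below 0.5 of WT for 3 members (PDE_00789, PDE_00804 and PDE_05948, at 0.348, 0.287 and 0.357) and above 2 times WT for 2 (PDE_02264 at 2.13 and PDE_09038 at 2.02). In gAraRC 45 members were called lower than in WT and 7 higher, while 57.0% of all tested genes were called lower and 19.1% higher. All 3 gAraRC libraries lay below all 3 WT libraries for 43 members and above them for 10 (56.8% and 18.9% of all tested genes), and they overlapped for 18. As given above, the all-gene median in gAraRC was also below 0. When the libraries were brought to a common median by median-of-ratios scaling, that median was -0.004, and 17 members were called higher and 29 lower. After quantile normalization 15 were higher and 32 lower, and after conversion to TPM 11 were higher and 37 lower. The shares of all tested genes called under these scalings were not counted, so nothing about the members is read from the changed counts.

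Among the 71 members, 39 had a difference of -0.5 or lower in gAraRC and 32 had a higher one, a split chosen after the values were seen. In the 39, the median difference was -1.56 in gCXC, -1.31 in gXlnRC and -0.82 in gAraRC. The rule fixes gAraRC above the other strains but sets no order between gCXC and gXlnRC. In the 32, the medians were -1.29, -1.32 and 0.07. The 39 held 0.183% ± 0.00363 of the reads in gCXC, 0.182% ± 0.0274 in gXlnRC, 0.299% ± 0.0144 in gAraRC and 0.483% ± 0.0417 in WT (SD, n = 3 libraries each). The 32 held 0.540% ± 0.0497 in gCXC, 0.560% ± 0.0260 in gXlnRC, 1.94% ± 0.333 in gAraRC and 1.68% ± 0.118 in WT. The larger share belonged to a few abundant genes, and the upper quartile of WT FPKM was 606 in the 32 and 160.0 in the 39.

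By group means, gCXC was lowest, gXlnRC next, then gAraRC, and WT highest for 37 members. For 16 the order was gXlnRC, gCXC, gAraRC and WT, for 11 it was gCXC, gXlnRC, WT and gAraRC, and for 7 it was gXlnRC, gCXC, WT and gAraRC. The rule itself places the means of gCXC and gXlnRC below those of gAraRC and WT.

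PDE_01191 was the most abundant member in WT and, of those with at least 10 FPKM in WT, the most strongly lowered on average over gCXC and gXlnRC. Its FPKM was 1483, 1423 and 1336 in gCXC, 299, 357 and 300.3 in gXlnRC, 3006, 4573 and 4813 in gAraRC, and 5059, 5128 and 5195 in WT. The 3 gXlnRC libraries formed the lowest group, the gCXC libraries stood well above them, and gAraRC came close to WT without reaching it. The differences from WT were -1.86 in gCXC, -4.01 in gXlnRC and -0.34 in gAraRC. PDE_01191 alone held 17.8% of the members' reads in WT.

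PDE_02215 was second in WT. It had 1047, 875 and 749 FPKM in gCXC, 1067, 1054 and 1012 in gXlnRC, 2859, 3501 and 3563 in gAraRC, and 3139.7, 2748 and 2004 in WT. The gCXC and gXlnRC libraries overlapped, as did those of gAraRC and WT. The 5 members with the most WT reads (PDE_01191, PDE_07956, PDE_02215, PDE_03483 and PDE_08183) held 62.0% of the members' WT reads; the last 2 and PDE_07956 are named after their values were seen. All members together took 0.722% ± 0.0528 of the reads in gCXC, 0.743% ± 0.0495 in gXlnRC, 2.24% ± 0.344 in gAraRC and 2.16% ± 0.153 in WT (SD, n = 3 each).

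PDE_00957 was lowered to a few FPKM in both strains. It had 6.43, 6.19 and 7.53 FPKM in gCXC, 3.87, 2.53 and 3.25 in gXlnRC, 29.7, 34.4 and 34.1 in gAraRC, and 38.8, 30.9 and 29.6 in WT. The gAraRC libraries lay within the range of WT, and the difference from WT was -0.01. In gCXC and gXlnRC it was -2.14 and -3.02.

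The highest gAraRC differences from WT among members with at least 10 FPKM in WT were those of PDE_09038 and PDE_08917. PDE_09038 had 126, 105 and 92.2 FPKM in gCXC, 467, 516 and 393 in gXlnRC, 1081, 2265 and 2330.2 in gAraRC, and 930.4, 951 and 936 in WT. PDE_08917 had 267, 232 and 209 FPKM in gCXC, 151, 165 and 142 in gXlnRC, 679, 1020.4 and 1036 in gAraRC, and 459, 494 and 492 in WT. In both genes every gAraRC library lay above every WT library, and gAraRC replicate 1 was the lowest of the 3. The differences from WT in gAraRC were 0.93 and 0.89, and without replicate 1 they were 1.29 and 1.09, past the limit of 1 that keeps a gene among the members. The membership of both also rested on another library. The difference of PDE_09038 in gXlnRC was -1.04, and -0.93 without gXlnRC replicate 3, and that of PDE_08917 in gCXC was -1.03, and -0.95 without gCXC replicate 3.

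At the other end stood PDE_08216 and PDE_02599, members with gAraRC values close to the 2-fold limit. PDE_08216 had 25.8, 26.0 and 29.2 FPKM in gCXC, 26.9, 26.2 and 31.3 in gXlnRC, 47.7, 66.9 and 54.7 in gAraRC, and 107, 115 and 112 in WT. PDE_02599 had 32.2, 32.4 and 37.7 FPKM in gCXC, 49.9, 51.4 and 55.1 in gXlnRC, 62.1, 85.8 and 63.4 in gAraRC, and 132, 145 and 137 in WT. Both were below WT in all 9 engineered libraries, with gAraRC between the other strains and WT. The gAraRC differences were -0.98 and -0.98. Without gAraRC replicate 2 they were -1.11 and -1.12, and without WT replicate 1 both were -1.01, which would move these genes to those lowered in all 3 strains.

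**Figure D3:**
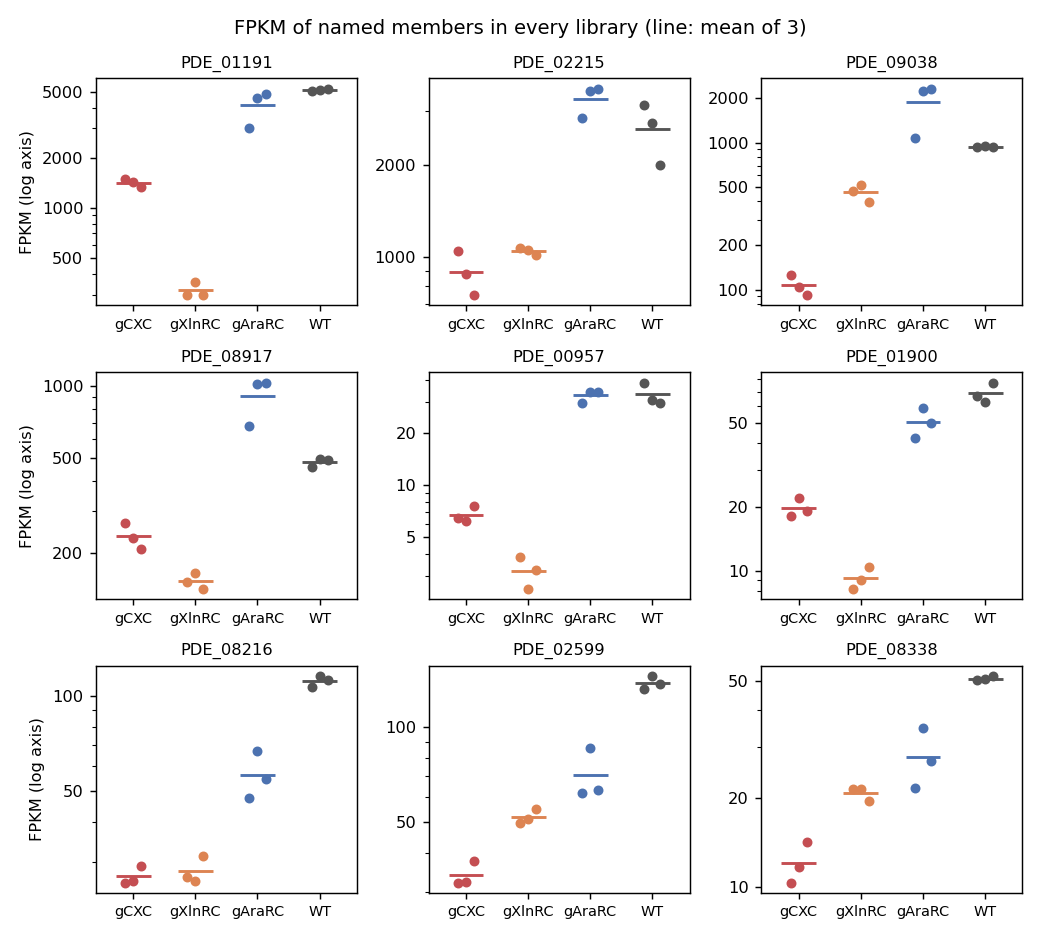
FPKM (log axis) of the named members in each of the 12 libraries, with strains from left to right as gCXC, gXlnRC, gAraRC and WT; points are libraries and lines are means of 3. PDE_01191 and PDE_09038 show opposite orders of gCXC and gXlnRC, and PDE_08216 shows no separation of these 2 strains.

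The direct comparison of gCXC with gXlnRC uses no WT library in its contrast, although the rule holds both strains at least 2-fold below WT. The median difference of the members, gCXC minus gXlnRC, was -0.14, and 0.08 over all tested genes. By limma with Benjamini-Hochberg adjustment over all genes (adjusted p below 0.05), 28 members differed (39.4%), 9 of them higher in gCXC and 19 lower. Of all tested genes 58.6% were called, 36.1% higher and 22.5% lower. The remaining 43 members did not pass the test, and 33 of the 71 had an unadjusted p below 0.05. The share of all tested genes at that unadjusted limit was not counted, so nothing is read from the 33. The median standard error was 0.13 for members and 0.09 for all tested genes. A difference within 0.5 of 0 was seen for 59 members (83.1%, against 71.3% of all tested genes). One within 0.25 was seen for 36 (50.7% against 42.4%). The rule bounds both strains at the same limit, which favours small differences between them, so nothing is read from this nearness or from the lower share of calls. Without gCXC replicate 1 the median difference of the members was -0.084.

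The calls between gCXC and gXlnRC were also counted under other scalings. With median-of-ratios scaling 7 members were called higher in gCXC and 25 lower, with TPM 8 and 22, and with quantile normalization 6 and 26. The median over all tested genes moved as well, to -0.0001, 0.0514 and 0.0497. The shares of all tested genes called under these scalings were not counted, so nothing is read from the member counts. The 19 members called lower in gCXC had differences of -2.08 to -0.18 with a median of -0.37. The 9 called higher had differences of 0.26 to 2.15 with a median of 0.62. Of the 28 calls, 19 were made in the same direction under every one of 24 settings, 6 higher and 13 lower. The share of such calls over all tested genes was not counted.

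**Figure D4:**
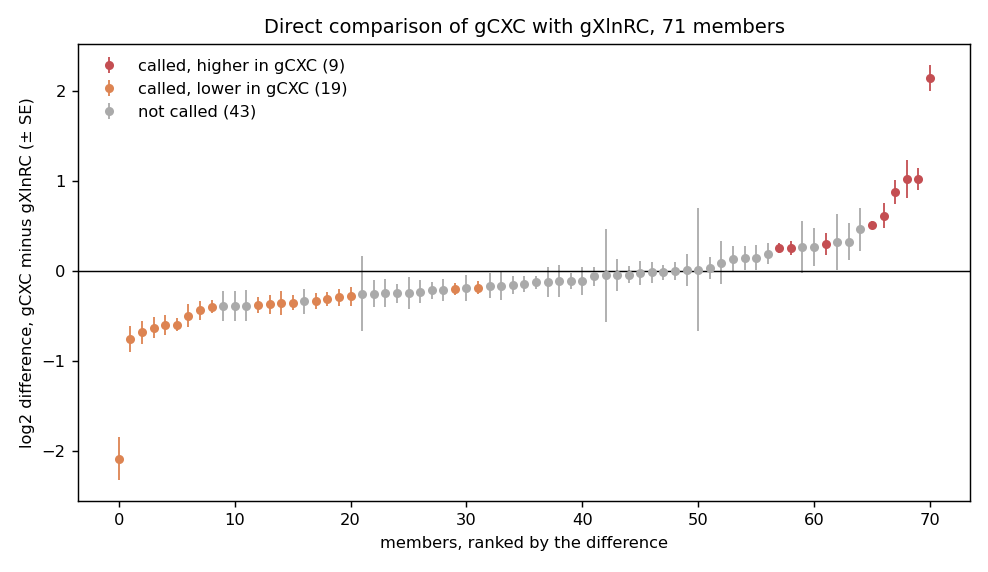
Log2 difference, gCXC minus gXlnRC, of the 71 members in rank order, with its standard error; colours separate the 9 members called higher in gCXC, the 19 called lower and the 43 not called. The values run from -2.08 to 2.15, and most lie close to 0.

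At least 2-fold differences between gCXC and gXlnRC were called for 3 members higher in gCXC and for 1 lower, against 3.53% and 4.99% of all tested genes. PDE_01191 differed by 2.15 ± 0.14 on the log2 scale (SE, limma, adjusted p = 1.49e-07), and its mean FPKM was 1414 ± 73.8 in gCXC and 319 ± 33.1 in gXlnRC (SD, n = 3 each). PDE_09038 differed the other way by -2.08 ± 0.24 (limma, adjusted p = 1.20e-05), with 108 ± 17.1 FPKM in gCXC and 459 ± 62.3 in gXlnRC. All 3 libraries of each strain were apart in both genes.

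PDE_01900 was the other large difference of the named genes, with 18.1, 21.9 and 19.1 FPKM in gCXC, 8.20, 9.03 and 10.4 in gXlnRC, 42.4, 58.7 and 49.9 in gAraRC, and 67.0, 62.5 and 77.3 in WT. Its difference between gCXC and gXlnRC was 1.02 ± 0.12 (SE, limma, adjusted p = 2.06e-05). The gAraRC libraries were below those of WT, with a difference of -0.45. The fourth gene past 2-fold, PDE_09133, is named after its values were seen. It had 3.51, 8.13 and 7.36 FPKM in gCXC and 2.5, 2.04 and 2.86 in gXlnRC, on 17 to 34 and 9 to 15 reads, and differed by 1.02 ± 0.21 (limma, adjusted p = 0.00131).

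Smaller differences were called for 4 more named members. PDE_00957 was higher in gCXC by 0.88 ± 0.13 (SE, limma, adjusted p = 0.000109) and PDE_08917 by 0.62 ± 0.14 (adjusted p = 0.00257). PDE_02599 was lower in gCXC by a log2 difference of -0.60 ± 0.11 (limma, adjusted p = 0.000505). PDE_08338 had 10.4, 11.7 and 14.2 FPKM in gCXC, 21.5, 21.6 and 19.7 in gXlnRC, 21.7, 34.6 and 26.7 in gAraRC, and 50.4, 50.7 and 52.0 in WT. Its gXlnRC libraries ended just under the lowest gAraRC library, its gCXC libraries lay below both, and the difference of gCXC from gXlnRC was -0.75 ± 0.14 (limma, adjusted p = 0.000622). Without gAraRC replicate 2 its gAraRC difference from WT was -1.05, outside the rule.

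PDE_02215 and PDE_08216 did not pass the test between gCXC and gXlnRC. Their differences were -0.24 ± 0.16 (SE, limma, adjusted p = 0.205) and -0.06 ± 0.11 (adjusted p = 0.679).

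The calls between gCXC and gXlnRC were also counted on each side of the gAraRC split. The counts are a description, since the split was made after the values were seen. The 39 members with a gAraRC difference of -0.5 or lower held 14 called lower in gCXC than in gXlnRC, 1 called higher and 24 not called. The 32 others held 5, 8 and 19. Of the 2128 tested genes with a gAraRC difference above -1 and up to -0.5, 17.9% were called lower and 41.1% higher, and of the 5043 between -0.5 and 1, 20.9% and 34.5%. The median gAraRC difference was 0.09 for the members called higher in gCXC, -0.80 for those called lower and -0.59 for those not called. Coding length differed among them too, with medians of 369, 603 and 729 nt in the same order. Across the 71 members the gAraRC difference and the gCXC minus gXlnRC difference had a Spearman rho of 0.28 and a Pearson r of 0.10, against -0.13 and -0.13 over all tested genes. All points of this correlation come from the same 12 libraries, and the rule bounds the gAraRC difference of the members, so no test is given.

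The members had a higher median level in WT than all tested genes. Their mean WT FPKM ran from 1.53 to 5127 with a median of 120.4, against a median of 26.9 over all tested genes and 36.3 over the 156 genes lowered at least 2-fold in all 3 strains. Between 50 and 350 FPKM stood 35 members (49.3%, against 27.9% of all tested genes), and above 350 stood 13 (18.3% against 5.26%). Between 10 and 50 stood 9 (12.7% against 40%), and below 10 stood 14 (19.7% against 26.8%). For 11 members at least 1 library held fewer than 10 reads. The addition of 1 to each FPKM shrinks the differences of low genes, so a low gene needed a deeper loss to meet the rule. Genes close to 0 FPKM in WT could not meet it. The WT level is thus partly set by the rule, and nothing is read from its comparison with all tested genes.

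Their coding lengths, recovered from the FPKM steps in units of 3 nt, were short. The median was 609 nt, with quartiles of 361.5 and 948 nt, whereas all tested genes had a median of 1161 nt and quartiles of 678 and 1773 nt. The 156 genes lowered in all 3 strains were also short, with a median of 886.5 nt. Of the members, 30 fell in the shortest length quintile of all tested genes (up to 570 nt) and 26 in the next (up to 975 nt), which is 78.9% in both together. The shortest quintile held 42.3% of the members and 32.7% of the 156 genes. Coding length went with the difference from WT over all genes too. In the shortest quintile the all-gene median was -0.11 in gCXC and -0.26 in gXlnRC, and in the longest it was 0.05 and 0.07. In gAraRC it was -0.32 and -0.31. For gCXC minus gXlnRC the all-gene median was 0.14 in the shortest quintile and -0.03 in the longest. With the medians of the libraries brought together in 20 bins of coding length, an alternative added after the data were seen, 74 genes met the rule and 45 of the 71 members were among them. The part of coding length in the members' differences was not tested further.

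In the order of tag numbers, most members stood alone. Runs whose tags lay within 5 of each other held 15 members (21.1%) in 7 runs, against 45.5% of the 156 genes lowered in all 3 strains, a list of more than 2 times the size. In 4 runs the tags were consecutive. The longest run was PDE_00957, PDE_00958 and PDE_00960. PDE_00958 had 5.27, 6.93 and 8.44 FPKM in gCXC, 5.10, 6.75 and 6.27 in gXlnRC, 22.9, 22.9 and 26.8 in gAraRC, and 18.1, 19.6 and 16.4 in WT, so gAraRC stood above WT. PDE_00960 had 3.11, 1.11 and 3.85 FPKM in gCXC, 1.85, 1.05 and 2.65 in gXlnRC, 5.10, 4.28 and 7.69 in gAraRC, and 8.0, 9.14 and 5.45 in WT, on 4 to 40 reads. Without gCXC replicate 2 its gCXC difference was -0.91, above the limit of the rule. The gCXC minus gXlnRC differences of both did not pass the test (0.15 ± 0.14, limma, adjusted p = 0.381, and 0.33 ± 0.31, adjusted p = 0.393). PDE_00959, between them, had differences from WT of -0.80 in gCXC, -1.01 in gXlnRC and -0.49 in gAraRC and missed the rule by its gCXC value.

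The other runs of consecutive tags are named after their values were seen. PDE_03482 had 327, 329 and 335 FPKM in gCXC, 228, 234 and 232 in gXlnRC, 753, 749 and 741 in gAraRC, and 717, 676 and 711 in WT. Its neighbour PDE_03483 had 613, 547 and 542 FPKM in gCXC, 340.1, 676 and 398 in gXlnRC, 892, 812 and 886 in gAraRC, and 1629, 1158 and 1168 in WT. The first was a little above WT in gAraRC and the second below it. PDE_03482 differed between gCXC and gXlnRC by 0.51 ± 0.04 (limma, adjusted p = 1.10e-06), and PDE_03483, whose gXlnRC replicate 2 stood above all gCXC libraries, by 0.33 ± 0.21 (adjusted p = 0.189).

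PDE_05239 and PDE_05240 showed the same order of strain means. The gAraRC libraries of PDE_05239 overlapped those of WT (difference -0.17), whereas those of PDE_05240 all lay below WT (-0.62). PDE_05239 had 635, 562 and 476 FPKM in gCXC, 754, 686 and 686 in gXlnRC, 1110.5, 1416 and 1407 in gAraRC, and 1651, 1582 and 1207 in WT. PDE_05240 had 296, 277 and 238 FPKM in gCXC, 363, 331 and 350.1 in gXlnRC, 434, 524 and 509.8 in gAraRC, and 826, 799 and 635 in WT. In both, gCXC was lower than gXlnRC, by differences of -0.35 ± 0.14 (limma, adjusted p = 0.0415) and -0.37 ± 0.11 (adjusted p = 0.0125). PDE_08183 had 341, 339.7 and 338 FPKM in gCXC, 370.4, 424 and 364 in gXlnRC, 1094, 1156 and 1232 in gAraRC, and 758, 785 and 834 in WT. PDE_08184 had 249, 258 and 252 FPKM in gCXC, 219.6, 202 and 214 in gXlnRC, 674, 645 and 602 in gAraRC, and 562, 565 and 596 in WT. Both stood above WT in every gAraRC library. The gXlnRC difference of PDE_05239 from WT was -1.05, and -0.96 and -0.995 without WT replicate 1 and 2, and that of PDE_08183 was -1.04, and -0.997 without gXlnRC replicate 3, all 3 outside the rule. Between gCXC and gXlnRC PDE_08183 and PDE_08184 went opposite ways, at -0.18 ± 0.07 (limma, adjusted p = 0.0378) and 0.26 ± 0.05 (adjusted p = 0.00164).

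PDE_01191 had no member within 5 tags, but genes with neighbouring tags shared its low values in gCXC and gXlnRC. Of the 9 tested tags from PDE_01187 to PDE_01195, 8 had a difference from WT of -1 or lower in both strains, and 7 of these had one of 1 or higher in gAraRC and so are no members. These 7 are among the 12 genes of the whole table with that pattern. PDE_01191 was the 1 of the 8 with a gAraRC mean below WT. PDE_01190, the tag before it, had differences of 0.10 in gCXC, 0.05 in gXlnRC and 0.74 in gAraRC. The order of gCXC and gXlnRC also varied among the neighbours. PDE_01194 had 3452 ± 269.7 FPKM in gCXC, 1281 ± 188 in gXlnRC, 39503 ± 9456 in gAraRC and 16508 ± 863 in WT, whereas PDE_01193 had 67.2 ± 15.8, 308 ± 53.4, 4231 ± 1322 and 868 ± 63.3 FPKM in these strains (SD, n = 3 each). The tags were looked up because PDE_01191 led the list, and their places in the genome are not known from the table.

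**Figure D5:**
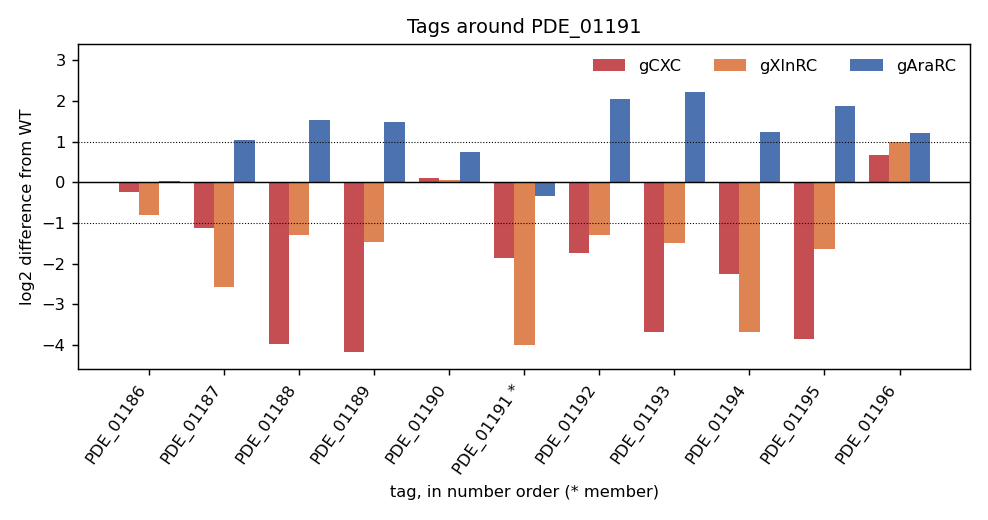
Log2 difference from WT of the tags from PDE_01186 to PDE_01196 in number order, with bars for gCXC, gXlnRC and gAraRC; an asterisk marks the member PDE_01191. In the 9 tags from PDE_01187 to PDE_01195 the gCXC and gXlnRC bars point down, with the exception of PDE_01190, and the gAraRC bars point up, with the exception of PDE_01191.

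The limits of the rule cut through a continuous range. Just inside the gCXC limit was PDE_00802 at -1.01, and just outside it PDE_06755 at -0.94. For gXlnRC the nearest inside was PDE_00497 at -1.0002 and the nearest outside PDE_03369 at -0.99. At the lower gAraRC limit PDE_08216 stood inside at -0.98 and PDE_02916 outside at -1.02, and at the upper one PDE_02264 stood inside at 0.95 and PDE_01187 outside at 1.03. Within 0.1 of the lower gAraRC limit there were 13 members and 9 genes outside, and within 0.2 there were 22 and 16. Near that limit the members and the genes lowered in all 3 strains are therefore neighbours on 1 scale.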

How the data were processed

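Messenger RNA of 12 Penicillium oxalicum libraries (4 strains, 3 each) was measured, grouped by the strain in the labels. The authors deposited 1 table of FPKM values for 9979 genes. Tools listed in the submitters' processing notes, with no role given, are HISAT2 2.0.0, DESeq2, featureCounts 1.5.0-p1 and CASAVA 1.8. The library kit was strand-specific, per the labels' protocols. No source used here gives the genome build, the annotation or the strand setting of the counting, so overlapping genes on opposite strands and near-identical copies could share reads. Of the PDE tags, 0 matched the reference gene table.

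Values entered the fit as log2(FPKM + 1). A model of group means over all 12 libraries was fitted with limma 3.58.1 (R 4.3.3, trended prior variance, 8 residual degrees of freedom) to the 9125 genes that reached 1 FPKM in 3 or more libraries. The pseudocount of 1 understates changes of low genes. Tests were two-sided, adjusted by Benjamini-Hochberg within each of 6 comparisons, and called at an adjusted p below 0.05. Reads and coding lengths were recovered from the FPKM steps in Python 3.11.15 (length step 3 nt). Values within 0.1 of whole reads made up 100%, which follows from the search. The summed reads were at least 99.99% of the recovered totals. The recovery and the fit were also run on simulated data. The simulation gave every gene and library the same relative spread, so it does not cover an outlying library such as gAraRC replicate 1. Precision comes from the spread of 3 libraries.

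The members and lists were chosen with earlier results of these data known. Named members were those with the 2 lowest mean differences in gCXC and gXlnRC and the 2 highest and 2 lowest gAraRC differences (each with at least 10 FPKM in WT), the 2 with the highest WT FPKM, the 2 most positive and 2 most negative called differences of gCXC from gXlnRC (not overlapping, at least 10 FPKM), those at the rule's limits, and the longest run of tags. Other pseudocounts (0.1 and 5), filters, scalings, voom on recovered reads (library sizes by median of ratios), a replicate block, library weights and left-out libraries were alternatives.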

Additional observations from a re-analysis of the deposited data

Results flagged for a closer look

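For 7 named members the change from WT differed between gCXC and gXlnRC by a direct test of the difference (limma, Benjamini-Hochberg over all genes). Of all tested genes 58.6% were called in this comparison, so nothing is read from the count of 7. The log2 difference, gCXC minus gXlnRC, was 2.15 for PDE_01191, 1.02 for PDE_01900, 0.88 for PDE_00957 and 0.62 for PDE_08917, which were higher in all 3 gCXC libraries than in all 3 gXlnRC libraries. It was -2.08 for PDE_09038, -0.75 for PDE_08338 and -0.60 for PDE_02599, which were lower in all 3 gCXC libraries than in all 3 gXlnRC libraries. PDE_01191, PDE_01900, PDE_09038 and PDE_08338 were named because they were called in this comparison and lie at its ends. Their calls were therefore fixed by the choice, and their sizes are the extremes of 71 genes.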

How the results depend on the processing

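The difference of gCXC from gXlnRC was recomputed for 11 named members, which leaves out PDE_00802, PDE_00497 and PDE_02264, named for the rule's limits alone. Of 264 values, 262 kept their direction and their side of the threshold. PDE_08216 ran from -0.11 to 0.022 with 1 library left out, the positive value without gXlnRC replicate 3 (limma, adjusted p = 0.89, 0.126 to 0.89 over the alternatives), and PDE_00958 to -0.0018 with the coding length correction (adjusted p = 0.993, 0.063 to 0.993). PDE_00957 ran from 0.51 to 1.05. The median of gCXC minus gXlnRC ran from -0.16 to -0.084 with 1 library left out, and was -0.23 with median-of-ratios scaling, -0.25 with voom and -0.27 with the coding length correction, where 31 members were called lower. The median of gCXC minus WT was -1.57 with a pseudocount of 0.1, -1.26 with 5, -1.37 with TPM, -1.51 with library weights and -1.55 with voom. That of gXlnRC minus WT was -1.48 and -1.15 with these pseudocounts, -1.37 with FPKM of at least 5, -1.22 with median-of-ratios scaling, -1.21 with TPM, -1.23 with quantile normalization, -1.13 with the length correction, and -1.38 to -1.31 with 1 library left out. In gAraRC minus WT it was -0.45 with a pseudocount of 5, -0.23 with median-of-ratios scaling, -0.44 with TPM, -0.30 with quantile normalization, -0.23 with the length correction and -0.24 with voom. Members called higher in gAraRC were 17 with median-of-ratios scaling, 11 with TPM, 15 with quantile normalization, 16 with the length correction, 11 with library weights and 17 with voom. Those called lower were 29 with median-of-ratios scaling, 28 with the length correction and 29 with voom. The causes were not tested. For the alternatives the shares of all tested genes called were not counted, so nothing is read from the member counts.

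With 1 library left out, 63 to 75 genes met the rule. Under the settings of the rule the number was 86 with a pseudocount of 0.1, 51 with 5, 63 with FPKM of at least 5, 81 with median-of-ratios scaling, 66 with TPM, 80 with quantile normalization and 74 with the length correction, and 22 members met it under all 20 settings. Deviations of same-numbered libraries had correlations of -0.09 to 0.17, above 0.1 in 3 of 18 pairs. That shows no clear pairing by replicate number but cannot establish its absence. With a replicate block 9 members were called higher and 21 lower in gCXC than in gXlnRC. The shares of all tested genes were not counted for it, so nothing is read from these counts. The library weights did not converge.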
